A study of Mus musculus with 2 samples.

Results

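The genes described here are 7 secreted factors that bring neutrophils into tissue or sustain them, namely the CXCR2 ligands Cxcl1, Cxcl2, Cxcl3, Cxcl5 and Ppbp and the granulocyte growth factors Csf3 and Csf2. They were chosen by symbol, and 6 of the 7 were found among the 19465 features counted. Cxcl2 was not in the feature list and was not analysed here. The study placed mouse pancreatic tumor sections on Visium CytAssist slides, on which pairs of probes ligated on a transcript are counted as unique molecular identifiers (UMIs) in barcoded spots. There was 1 library for each of the labels KPC-shZEB1 and KPC-shV. Each came from orthotopic allograft tumors in the pancreas of C57BL/6J mice a few weeks old, which had been injected, in Matrigel, with KPC cells carrying a short hairpin RNA against Zeb1 (shZEB1) or the control vector (shV). KPC is a mouse pancreatic cancer cell line from a genetically engineered mouse with Pdx1-driven Cre, and the hairpin acts only in the injected cells, not in stroma or immune cells of the host. The text of the study names 2 tumors per group, and the labels do not say which of them a library covers. Gemcitabine treatment of the mice is given in the text of the study for these tumor tissues and not in the labels.

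CXCR2 is the chemokine receptor through which neutrophils leave the blood and move toward a source of ligand. Its mouse ligands carry the ELR motif before the CXC cysteines, lie in a cluster on chromosome 5, and are made by epithelial, stromal and tumor cells after interleukin-1, TNF, interleukin-17 or other NF-kB signals. Cxcl2 and Cxcl3 are also made by activated macrophages and by neutrophils themselves, and Ppbp is the platelet basic protein precursor stored in platelet granules. Csf3 encodes G-CSF, which drives the production and release of neutrophils from bone marrow, and Csf2 encodes GM-CSF, which acts on granulocytes and macrophages and is known as a product of pancreatic tumor cells.

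In GRCm38, which the deposited files name as mm10, the 5 ligand genes spanned 146.6 kb of chromosome 5, all on the plus strand. Pf4, between Ppbp and Cxcl3, and Cxcl15, between Cxcl3 and Cxcl1, lie in the same span. The annotation (GENCODE) places Cxcl5 at chr5:90759360-90761624, Ppbp at chr5:90768518-90770063, Cxcl3 at chr5:90786103-90789600, Cxcl1 at chr5:90891241-90893115 and Cxcl2 at chr5:90903871-90905938. Csf2 and Csf3 lie far apart on chromosome 11, Csf2 at chr11:54247271-54249667 on the minus strand and Csf3 at chr11:98701263-98703629 on the plus strand.

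RefSeq promoter windows (GRCm38.p6, 300 bases, from 250 before the gene's start to 50 after it) were matched for 5 of the 7 genes. No entry was matched for Cxcl5 or Csf3. The windows of Cxcl1 and Cxcl3 are printed because these ligands are compared most closely in the hypoxic and neutrophil-rich spots below, and that of Csf2 as the growth factor with an entry. Each is read 5′ to 3′ on the gene's own strand. Capitals mark the NF-kB pattern GGGNNNNNCC on either strand and, in Csf2 alone, the E-box CACCTG that factors such as Zeb1 can bind (the stretch of capitals nearer the 5′ end).
Cxcl1, chr5:90890995-90891294, plus strand: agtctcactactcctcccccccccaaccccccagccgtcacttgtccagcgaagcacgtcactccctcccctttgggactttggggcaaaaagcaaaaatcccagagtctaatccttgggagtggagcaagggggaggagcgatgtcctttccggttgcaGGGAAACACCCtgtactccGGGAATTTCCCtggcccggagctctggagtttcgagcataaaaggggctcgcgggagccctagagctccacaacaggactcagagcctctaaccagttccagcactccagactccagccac
Cxcl3, chr5:90785851-90786150, plus strand: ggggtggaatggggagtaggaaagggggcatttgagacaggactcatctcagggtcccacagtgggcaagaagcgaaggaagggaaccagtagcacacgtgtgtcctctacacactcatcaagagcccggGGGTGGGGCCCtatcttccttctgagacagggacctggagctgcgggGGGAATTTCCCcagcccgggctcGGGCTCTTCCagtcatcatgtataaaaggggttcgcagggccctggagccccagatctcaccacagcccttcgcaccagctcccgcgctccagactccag
Csf2, chr11:54249850-54250149, minus strand: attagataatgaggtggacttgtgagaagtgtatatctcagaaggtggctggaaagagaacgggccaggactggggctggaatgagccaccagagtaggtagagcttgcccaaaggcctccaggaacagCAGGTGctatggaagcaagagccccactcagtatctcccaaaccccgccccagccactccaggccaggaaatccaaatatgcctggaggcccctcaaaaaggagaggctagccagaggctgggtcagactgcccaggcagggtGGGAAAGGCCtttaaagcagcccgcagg
The Csf2 window lies wholly before the start that GENCODE gives, because RefSeq places the start farther upstream. The NF-kB pattern was loose, and 50.8% of the 32851 promoter windows of the same length held it. It formed 2 separate stretches in Cxcl1, 3 in Cxcl3, 2 in Cxcl2 and 1 in Csf2, and had no match in the Ppbp window. The 10 letters GGGAATTTCC, found after the windows had been looked at, were shared by Cxcl1, Cxcl2 and Cxcl3 and occurred in 29 windows (0.0883%). CACCTG, searched on both strands, occurred in 20.2% of windows and once in Csf2, with no match in the other 4 windows. The core ACGTG of hypoxia response elements occurred in 19.6% of windows, with 1 match in Cxcl1, 2 in Cxcl3 that overlap on opposite strands and 1 in Ppbp. The AP-1 pattern TGANTCA was held by 7.81% of windows, and among the members by Ppbp. These are matches of letters and not measured binding.

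The library labelled KPC-shZEB1 held 2220 spots and 140493626 UMIs, and that labelled KPC-shV held 3552 spots and 172059528 UMIs. Median depth was 59958 and 52545 UMIs per spot. Spots with over 20% of their UMIs from acinar genes (normal exocrine pancreas) were 34.2% of all spots for the label KPC-shZEB1 and 7.07% for KPC-shV. These acinar-rich spots held almost none of the chemokines, 4.58 and 18.8 counts in every 1000000 UMIs (CPM) for the 4 ligands summed, and stayed out of the values below. That left 1460 and 3301 spots. The barcodes of 1718 spots occurred in both libraries, as fixed slide positions do. Zeb1, the targeted gene, stood at 15.6 CPM (95% interval, 14.8 to 16.5) under the label KPC-shZEB1 and at 12.7 CPM (12.2 to 13.3) under the label KPC-shV. It was thus no lower where the label says it was knocked down, also in epithelial-rich spots (8.62 against 7.07 CPM). Those epithelial levels were low, as Omp, an olfactory gene not expected in pancreas, stood at 5.59 and 8.32 CPM over all spots used. Host stroma in the spots carries Zeb1 too, at 23.8 and 19.7 CPM in fibroblast-rich spots. From these levels a knockdown in the tumor cells alone could not be judged. Every direction given between the libraries therefore rests on labels that the targeted gene did not bear out. With 1 library per group there was no replicate and no test. Intervals are exact 95% Poisson or binomial intervals and cover counting error only, not the spread between tumors. A spot covers more than a single cell, often of mixed types, so fewer cells of a type and less RNA per cell cannot be told apart.

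All 4 measured CXCR2 ligands were lower in the library labelled KPC-shZEB1 than in that labelled KPC-shV. Summed over the 4, the level was 254.9 CPM (251.5 to 258.3; 21778 UMIs) against 639.9 CPM (636.0 to 643.7; 105934 UMIs), a log2 ratio of -1.33 (-1.35 to -1.31). Cxcl5, the epithelial ligand also known as LIX, was at 167 CPM (14289 UMIs) against 465 CPM (76969 UMIs), 2.78 times higher in the library labelled KPC-shV. Cxcl1, the mouse counterpart of GRO-alpha, was at 34.3 CPM (33.1 to 35.6) against 98.1 CPM (96.5 to 99.6), a log2 ratio of -1.52 (-1.57 to -1.46). Cxcl1 and Cxcl5 thus differed by much the same factor.

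Ppbp was at 4.19 CPM (3.77 to 4.65; 358 UMIs) against 9.75 CPM (1615 UMIs), a log2 ratio of -1.22 (-1.39 to -1.05). Cxcl3 differed least, at 49.2 CPM (4201 UMIs) against 67.1 CPM (11117 UMIs), a log2 ratio of -0.45 (-0.50 to -0.40). The Ppbp level has to be read against 13 genes not expected in pancreas (photoreceptor, sperm, olfactory, hypothalamic and pituitary genes), of which 12 lay between 0.41 and 2.19 CPM in the library labelled KPC-shZEB1 and the highest, Omp, lay at 5.59 CPM. Ppbp there lay above the 12 and below Omp, so in that library it was within the range of background. In the library labelled KPC-shV, where Omp was at 8.32 CPM and the other 12 at no more than 1.69 CPM, Ppbp exceeded all 13.

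The 2 growth factors were lower in the library labelled KPC-shZEB1 as well. Together they were at 26.9 CPM (25.8 to 28.0) against 81.9 CPM (80.5 to 83.3), a log2 ratio of -1.61 (-1.67 to -1.54). Csf3 differed by the widest margin of the 6 members, 4.27 CPM (3.85 to 4.73; 365 UMIs) against 22.8 CPM (3774 UMIs), a log2 ratio of -2.42 (-2.57 to -2.26). Its level in the library labelled KPC-shZEB1 was also under that of Omp, and thus within the full background range. It lay above the other 12 off-tissue genes, which reached 2.19 CPM at most. In the acinar-rich spots of that library Csf3 was at 0.109 CPM (6 UMIs). The size of the ratio is uncertain because it rests on this low level. Csf2 was at 22.6 CPM (1933 UMIs) against 59.1 CPM (9781 UMIs), 2.61 times higher in the library labelled KPC-shV.

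**Figure D1:**
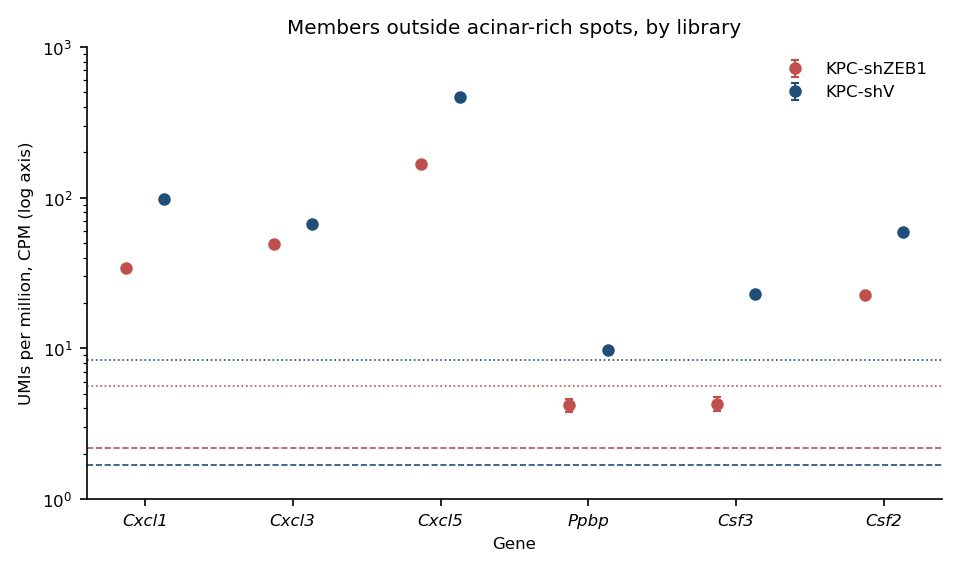
Level of each measured member in CPM (log axis) in the library labelled KPC-shZEB1 and that labelled KPC-shV, outside acinar-rich spots, with exact 95% Poisson intervals. All 6 members sit lower in the library labelled KPC-shZEB1, from Cxcl3 (49.2 against 67.1 CPM) to Csf3 (4.27 against 22.8 CPM).

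Of the 6 members, 5 had a log2 ratio of -1 or below, the exception being Cxcl3. That exception depended on the processing, since Cxcl3 stood at -1.11 with all spots and at -1.51 with the CPM of each spot averaged. Among the 18896 genes with at least 100 UMIs, 1.71% were at -1 or below and 3.81% at 1 or above, and their median log2 ratio was -0.01. Markers of other cells moved with this difference. Over the same spots, the 6 measured neutrophil markers summed to 113.6 against 296.6 CPM. Of these 6, 3 were at -1 or below (from S100a9, -1.88, to Ly6g, -0.33) and all were below 0. Most of the sum was S100a8 (40.6 against 87.3 CPM) and S100a9 (44.1 against 162 CPM). Retnlg (1.45 and 4.81 CPM) and Ly6g (2.80 and 3.51 CPM) lay under Omp in both libraries. The 10 hypoxia genes, such as Vegfa (-2.08), were all lower in the library labelled KPC-shZEB1, 5 of them at -1 or below. T cell markers ran higher there (6 of 6 at 1 or above, 138.2 against 29.1 CPM summed), as were the 4 B cell markers (36.8 against 8.61 CPM), and macrophage markers were at 2621 against 1709 CPM. Fibroblast genes had 4 of 8 at 1 or above (Dpt highest, 2.14) and mast cell genes 3 of 5. Acinar genes that remained in these spots summed to 6524 against 1917 CPM, with 16 of 18 at 1 or above. The part of these cells in the chemokine difference was not tested.

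Ppbp differed between the libraries while the summed platelet genes hardly did, but that sum says little about platelets. The 6 platelet genes summed to 90.9 CPM against 85.9 CPM, a log2 ratio of 0.08, and nearly all of this was Pf4 (81.6 and 74.6 CPM), which macrophages also make. Every other platelet gene lay under Omp in both libraries, with Itga2b highest at 3.61 and 4.72 CPM. Whether Ppbp departs from platelets therefore could not be told. In fibroblast-rich spots, defined below, Pf4 was higher than in other spots (log2 1.29 and 2.43), while Ppbp was lower (-1.16 and -0.95).

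The share of spots in which a member was found differed between the libraries and depended on depth. To compare shares of spots at equal depth, each spot was thinned to 5000 UMIs, and 4 and 174 spots too shallow for this were dropped. At least 1 ligand UMI was then found in 52.5% (49.9 to 55.1) of the 1456 spots kept from the library labelled KPC-shZEB1, and in 73.5% (71.9 to 75.1) of the 3127 kept from that labelled KPC-shV. At 2000 UMIs the shares were 29.0% and 54.1%. Without thinning, at median depths of 58340 and 54861 UMIs, they were 92.5% and 94.1%. In acinar-rich spots thinned to 5000 UMIs (median depths 66371 and 24224 UMIs) the share was 2.50% and 9.17%.

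By member, Cxcl5 was found in 42.0% of thinned spots from the library labelled KPC-shZEB1 and 60.8% of those from KPC-shV, Cxcl1 in 14.8% and 33.2%, and Cxcl3 in 16.6% and 24.7%. Csf2 was found in 9.89% and 22.6%, Csf3 in 2.75% and 9.63%, and Ppbp in 1.44% and 5.28%. The share for Omp, the highest of the off-tissue genes, was 2.88% and 4.25%. Ppbp and Csf3 were thus below Omp by this measure in the library labelled KPC-shZEB1 and above it in the other. The next highest off-tissue gene in the library labelled KPC-shZEB1, Prl, was at 1.30%, close to Ppbp and under Csf3. Cxcl1 and Cxcl5 were found together in 9.0% and 24.9% of spots, and Csf2 and Csf3 together in 0.41% and 3.20%.

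The spread from spot to spot was wide. For Cxcl5 in the library labelled KPC-shZEB1, the median spot was at 91.0 CPM, the 90th percentile at 357 CPM and the highest spot at 1169 CPM. In that labelled KPC-shV these were 207, 1124 and 3590 CPM. For Cxcl1 the medians were 19.1 and 66.2 CPM and the 90th percentiles 84.0 and 223 CPM. The top 5% of spots held 27.1% and 27.7% of all Cxcl5 UMIs, with 6.96% and 6.25% of the UMIs of all genes. Ppbp was the most concentrated, with 60.6% and 33.8% of its UMIs in its top 5% of spots.

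Cxcl3 in the library labelled KPC-shV was concentrated in a different way. Its median spot was at 34.4 CPM and its highest at 3343 CPM, from 34 UMIs. The 5% of spots with the highest Cxcl3 held 9.54% of its UMIs but 0.64% of all UMIs, so they were shallow, and 99.4% of them fell into the neutrophil-rich class defined below. In the 630 spots with under 20000 UMIs Cxcl3 was at 243.7 CPM (231.3 to 256.7), against 60.7 CPM in the 2671 deeper spots. Cxcl5 went the other way, with 201.0 CPM in the shallow spots and 474.6 CPM in the deeper ones. Averaging the CPM of each spot instead of summing UMIs therefore moved the Cxcl3 ratio between libraries from -0.45 to -1.51.

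Spots were then classed by 4 gene lists, none of which holds a member. A spot counted as hypoxic, epithelial-rich, fibroblast-rich or neutrophil-rich when its mean score over the list reached the 80th percentile of the non-acinar spots of both libraries together. The classes can overlap, and they are ranges of a score rather than cell types, with 27 to 143 spots (library labelled KPC-shZEB1) and 107 to 438 spots (library labelled KPC-shV) within 0.1 of a threshold. The library labelled KPC-shZEB1 had 55 hypoxic spots, 368 epithelial-rich, 341 fibroblast-rich and 60 neutrophil-rich. In that labelled KPC-shV these numbered 898, 585, 612 and 893. Hypoxic spots were thus 3.77% and 27.2% of the spots used, and neutrophil-rich spots 4.11% and 27.1%. Both classes at once held 622 spots of the library labelled KPC-shV (69.3% of its hypoxic ones) and 5 of the other. Depth moved with class in the library labelled KPC-shV, with a median of 29825 UMIs in neutrophil-rich spots, 38307 in hypoxic spots and 21716 in fibroblast-rich spots, against 60643 to 61726 in the spots outside each class.

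Epithelial-rich spots held more of every member in both libraries, except that Csf3 hardly differed in that labelled KPC-shV. Of the 585 epithelial-rich spots of the library labelled KPC-shV, 357 were also hypoxic and 292 also neutrophil-rich. In that labelled KPC-shZEB1 these were 26 and 13 of 368. The results for these classes in the library labelled KPC-shV are thus not independent. The ligand sum was at 368 CPM in epithelial-rich spots against 208 CPM in the others in the library labelled KPC-shZEB1 (log2 0.82, 0.79 to 0.86), and at 921 against 576 CPM in that labelled KPC-shV (0.68, 0.66 to 0.70). Cxcl5 was at 259 against 129 CPM (log2 1.01) in the library labelled KPC-shZEB1 and stood at 680 against 416 CPM (0.71) in that labelled KPC-shV. Ppbp was at 7.91 against 2.63 CPM (log2 1.59) and at 14.5 against 8.68 CPM (0.74). Of the 7 off-tissue genes with at least 100 UMIs, 6 were lower in the epithelial-rich spots of the library labelled KPC-shZEB1 (median -0.35). Omp alone was higher there (log2 1.04). Ppbp thus differed in direction from 6 of these 7 genes and shared it with Omp. Cxcl1 had log2 ratios of 0.45 and 0.27, and Cxcl3 0.38 and 0.99. Csf2 stood at 0.36 and 0.17, and Csf3 at 0.63 and 0.07, the latter with an interval that held 0. Of the 6 members, 2 were at 1 or above in the library labelled KPC-shZEB1 (median 0.54), against 3.11% of 14400 genes. In that labelled KPC-shV none of the 6 was (median 0.49), against 1.19% of 17861 genes.

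Fibroblast-rich spots held far less of the ligands, by the widest margin of the 4 classes. Remaining acinar RNA was higher in these spots than in the others. In the library labelled KPC-shZEB1, 17 of 17 acinar genes were at a log2 ratio of 1 or above (median 2.68). In that labelled KPC-shV, 17 of 18 were (median 5.62). The part of acinar tissue in the low ligand level was not tested. No spot was both fibroblast-rich and epithelial-rich, so the results for these classes are not independent. The ligand sum was at 56.4 against 299.8 CPM in the library labelled KPC-shZEB1 (log2 -2.41) and at 111 against 697 CPM in that labelled KPC-shV (-2.65). Cxcl3 was lowest relative to the other spots, 6.85 against 58.8 CPM (-3.10) and 7.35 against 73.6 CPM (-3.32). Cxcl5 followed at -2.39 and -2.79, and Cxcl1 at -2.01 and -2.10. The growth factors showed a smaller gap, with Csf2 at -1.25 and -0.97 and Csf3 at -1.56 and -1.89. All 6 members were at -1 or below in the library labelled KPC-shZEB1, against 6.66% of genes, and 4 of 6 in that labelled KPC-shV, against 6.63%. None was at 1 or above, as 12.6% and 17.9% of genes were.

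Neutrophil-rich spots held more Cxcl1, Cxcl3 and Cxcl5 in both libraries. Cxcl3 was at 159 CPM (516 UMIs) in the 60 neutrophil-rich spots of the library labelled KPC-shZEB1 against 44.8 CPM in the others, a log2 ratio of 1.82. In the 893 such spots of the library labelled KPC-shV it was at 181 CPM against 42.9 CPM, a ratio of 2.08. Its levels were thus close in the neutrophil-rich spots of both libraries and close again outside them. Cxcl5 was at 372 against 159 CPM (1.22) and 705 against 414 CPM (0.77), and Cxcl1 at 55.4 against 33.5 CPM (0.73) and 153 against 86.3 CPM (0.83). The growth factors moved little, with summed log2 ratios of -0.04 and 0.38. The direction in the library labelled KPC-shZEB1 depended on the threshold. At the 90th percentile, which left 11 spots, its ligand sum turned to -1.17, Cxcl3 to -0.75 and Cxcl5 to -1.29. Ppbp rested on 10 UMIs in the library labelled KPC-shZEB1 (-0.46) and was at 19.1 against 7.76 CPM (1.30) in that labelled KPC-shV. At a log2 ratio of 1 or above were 2 of 6 members in each library, against 1.73% of genes (library labelled KPC-shZEB1) and 2.35% (KPC-shV).

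In hypoxic spots the ligands lay on opposite sides of the other spots in the 2 libraries, a difference that was not tested. In the library labelled KPC-shV all 6 members were higher in the 898 hypoxic spots than in the others. The ligand sum was at 918 against 568 CPM (log2 0.69, 0.67 to 0.71), Cxcl3 at 148 against 46.1 CPM (1.69), Cxcl1 at 149 against 85.0 CPM (0.81) and Cxcl5 at 607 against 428 CPM (0.50). Csf2 was at 79.6 against 53.8 CPM (0.57), and Csf3 at 26.4 against 21.9 CPM (0.27). Cxcl3 alone was at 1 or above, as 1.75% of genes were.

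In the library labelled KPC-shZEB1, which had 55 hypoxic spots, the ligand sum was lower in them, 192 against 257 CPM (log2 -0.42, -0.55 to -0.29). Cxcl3 was at 31.1 against 49.7 CPM (-0.68; 81 UMIs), Cxcl1 at 25.4 against 34.6 CPM (-0.45; 66 UMIs) and Cxcl5 at 134 against 168 CPM (-0.33). Csf2 was the exception, at 28.8 against 22.4 CPM (0.36; 75 UMIs), while Ppbp rested on 4 UMIs (-1.47) and Csf3 on 9 UMIs, with an interval that held 0. None of the 6 was at 1 or above, against 3.53% of genes, and 1 was at -1 or below, against 10.1%. The opposite direction depends on where the class starts. With the 80th percentile set within each library, 292 spots of the library labelled KPC-shZEB1 counted as hypoxic and its ligand sum was higher in them (0.26).

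**Figure D2:**
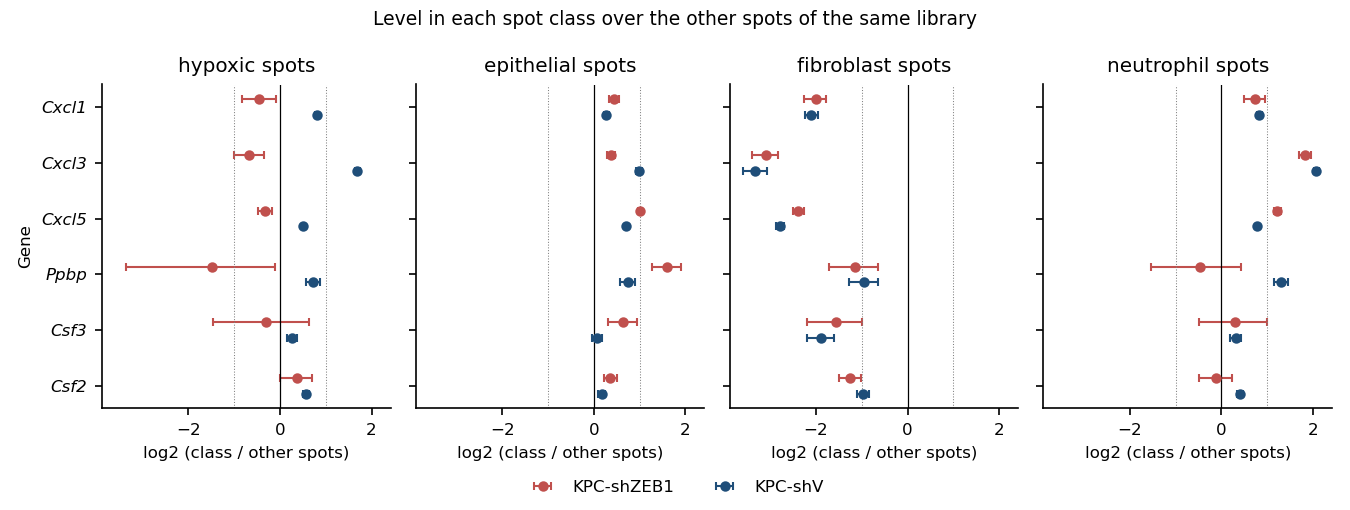
Log2 ratio of each member's level in a class of spots over the other spots of the same library, for the 4 classes, with exact 95% binomial intervals. Every member is below 0 in fibroblast-rich spots of both libraries, every member is above 0 in epithelial-rich spots, and in hypoxic spots the 4 ligands lie below 0 in the library labelled KPC-shZEB1 and above 0 in that labelled KPC-shV.

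Because hypoxic and neutrophil-rich spots overlapped in the library labelled KPC-shV, its spots were split by both, into 2132 of neither class, 276 hypoxic only, 271 neutrophil-rich only and 622 of both. Cxcl3 was at 39.7 CPM in spots of neither class, 66.8 CPM in hypoxic-only spots, 116 CPM in neutrophil-only spots and 220.4 CPM in spots of both. It was thus higher with each, and highest with both. Cxcl1 went from 80.8 CPM to 127 and 130 CPM with hypoxia or neutrophil markers alone and to 167 CPM with both.

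In this split Cxcl5 and Ppbp were higher with neutrophil markers alone than with hypoxia alone. Cxcl5 was at 393 CPM in spots of neither class, 568 CPM in hypoxic-only spots, 808 CPM in neutrophil-only spots and 641 CPM in spots of both, and Ppbp at 7.51, 9.64, 20.5 and 18.2 CPM. Csf2 followed hypoxia instead, at 53.7 CPM in spots of neither class and 54.8 CPM in neutrophil-only spots but 72.8 CPM in hypoxic-only spots and 85.6 CPM in spots of both. Csf3 varied least, between 21.5 and 27.8 CPM. Over all spots used from the library labelled KPC-shV, Cxcl5 had a Pearson's r of 0.32 with the hypoxia score and 0.16 with the neutrophil score. For Ppbp these were 0.14 and 0.15. By ranks (Spearman's correlation) Cxcl5 had 0.40 with each score. The order seen for these ligands in the split thus did not hold clearly over all spots.

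The same split of the library labelled KPC-shZEB1 gave 1350, 50, 55 and 5 spots. Cxcl3 was at 45.3 CPM in spots of neither class, 28.3 CPM in hypoxic-only spots and 163 CPM in neutrophil-only spots, and Cxcl5 at 160, 132 and 383 CPM. Both ligands were thus highest with neutrophil markers alone and lowest with hypoxia alone. The 5 spots of both classes held 12 UMIs of Cxcl3 and were too few to place.

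**Figure D3:**
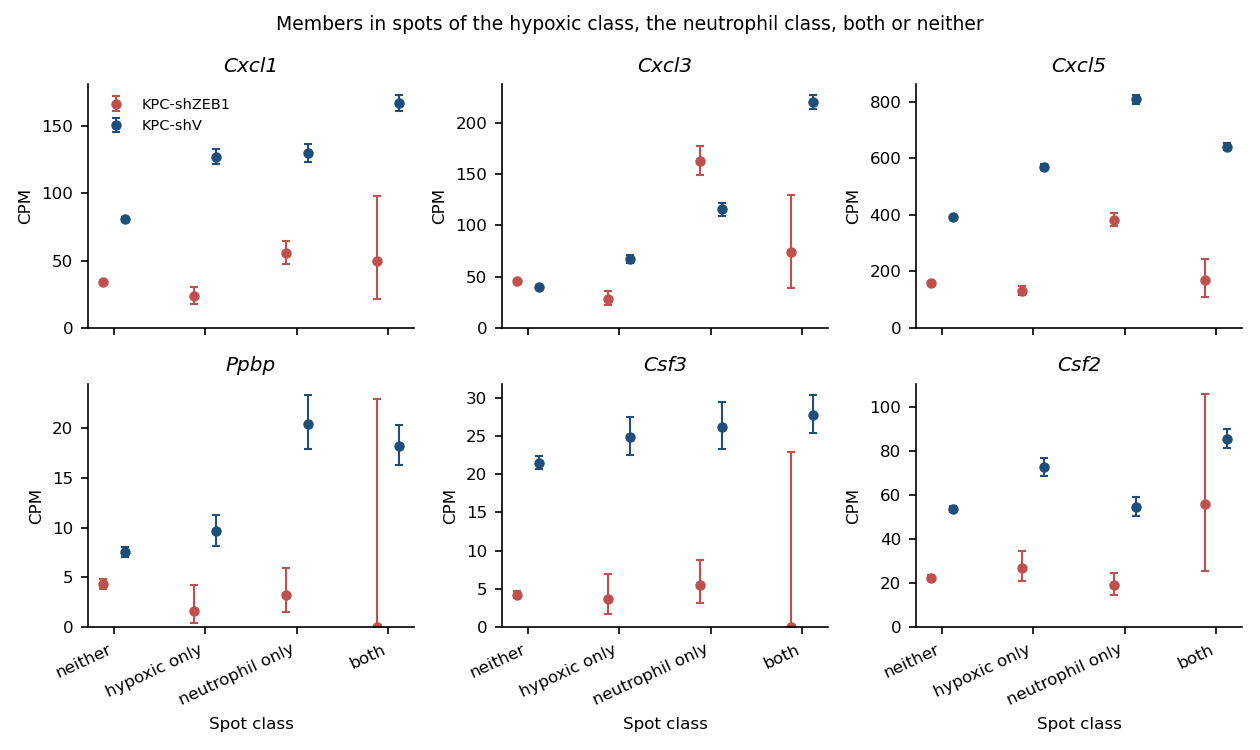
Level of each member in CPM in spots of neither class, hypoxic only, neutrophil-rich only and both, for each library, with exact 95% Poisson intervals. In the library labelled KPC-shV, Cxcl3 climbs from 39.7 CPM in spots of neither class to 220.4 CPM in spots of both, while Csf3 stays between 21.5 and 27.8 CPM.

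Thresholds aside, the spots of each library were also divided into 5 equal parts by each score. Along the hypoxia score the ligand sum in the library labelled KPC-shV stood at 274, 377, 735, 971 and 918 CPM from the lowest to the highest part, and in that labelled KPC-shZEB1 at 177, 205, 266, 323 and 294 CPM. Both libraries thus had their highest value in the fourth part, with a smaller span in the library labelled KPC-shZEB1 (log2 0.73 from the lowest part to the highest, against 1.75). Cxcl3 went from 24.1 to 172 CPM with hypoxia in the library labelled KPC-shV, higher at every step, and from 31.8 to 49.0 CPM in the other, with its top at 68.4 CPM in the fourth part.

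Along the neutrophil score the ligand sum was higher at every step in both libraries, from 287 to 1051 CPM in that labelled KPC-shV and from 107 to 454 CPM in that labelled KPC-shZEB1. Cxcl3 went from 20.8 to 235 CPM and from 15.6 to 95.3 CPM. Along the epithelial score the ligand sum also climbed at every step, from 181 to 926 CPM and from 54.7 to 365 CPM. Along the fibroblast score it dropped at every step, from 1040 to 122 CPM and from 427 to 54.0 CPM. The direction along these 3 scores was thus the same in both libraries. The epithelial and fibroblast scores ran against each other, with a Pearson's r of -0.77 (library labelled KPC-shZEB1) and -0.81 (KPC-shV). The trends along them therefore largely restate each other. Csf2 along the neutrophil score was nearly level in the library labelled KPC-shZEB1, between 19.3 and 24.8 CPM, and lay between 54.4 and 77.6 CPM in that labelled KPC-shV.

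**Figure D4:**
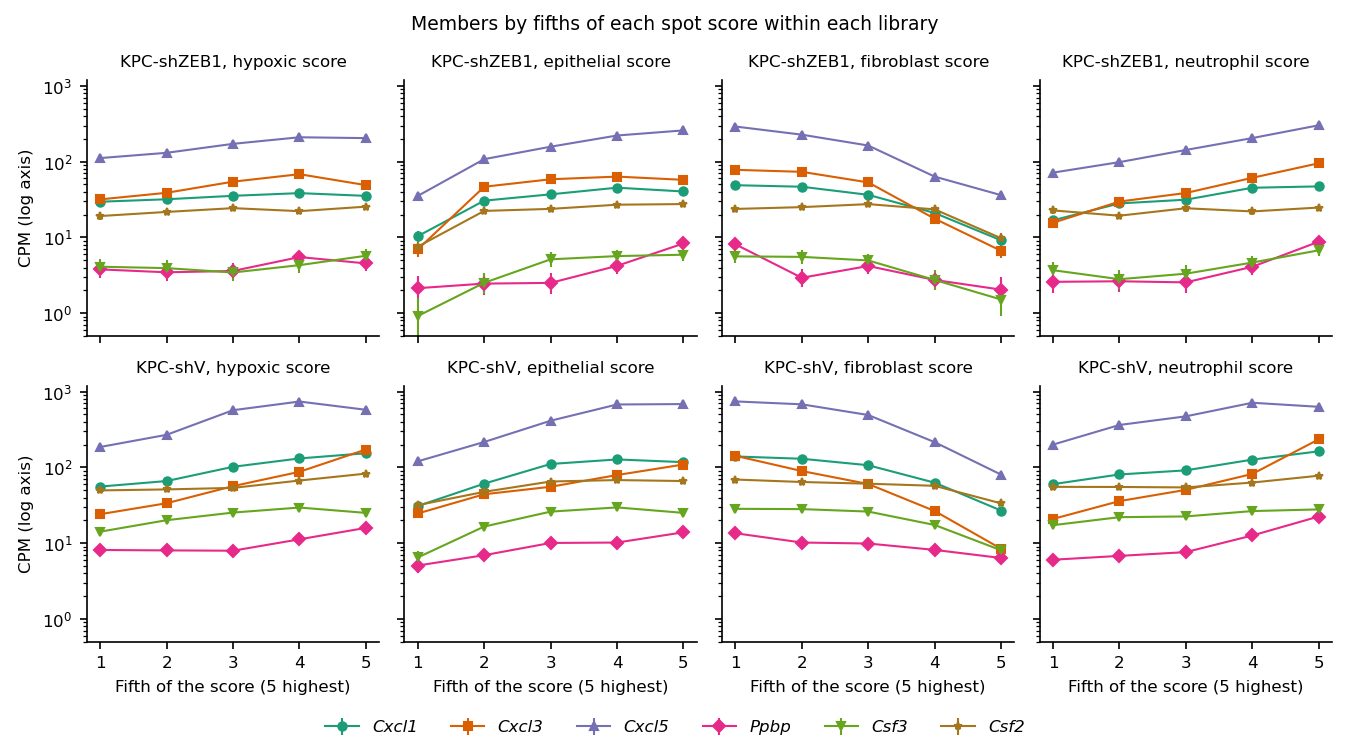
Level in CPM (log axis) along 5 equal parts of the spots of each library, ordered by the hypoxia, epithelial, fibroblast or neutrophil score, with exact 95% Poisson intervals. Single members are drawn. In both libraries Cxcl5 climbs at every step of the epithelial score, and Cxcl1 and Cxcl3 at every step of the neutrophil score. Cxcl1, Cxcl3, Cxcl5 and Csf3 drop at every step of the fibroblast score in both. Along the hypoxia score Cxcl5 peaks in the fourth part of both libraries. In the library labelled KPC-shV, Cxcl1, Cxcl3 and Csf2 climb at every hypoxia step, and Cxcl5 is lower in the last part of the neutrophil score than in the fourth.

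The libraries were then compared within sets of spots defined by class, since they differed in how many spots were hypoxic or neutrophil-rich. These sets shared a threshold but were not alike in content. Of the hypoxic spots, 9.09% (library labelled KPC-shZEB1) and 69.3% (KPC-shV) were also neutrophil-rich. The median hypoxia score in hypoxic spots was 1.84 and 2.17, and the median neutrophil score in neutrophil-rich spots 0.67 and 1.03. In the 691 and 1374 spots that belonged to none of the 4 classes, the ligand sum was at 245 against 550.2 CPM (log2 -1.17, -1.20 to -1.13), and the growth factor sum at 29.2 against 82.7 CPM (-1.5). Neutrophil markers in these spots were at 93.1 and 124 CPM. By member the ratios there were -1.25 for Cxcl1, -1.44 for Cxcl5, -1.46 for Ppbp, -2.48 for Csf3 and -1.24 for Csf2. For these 5 the difference between libraries was thus present outside the classes too, and it was negative in each set of spots shown in the plot of ratios by set.

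Cxcl3 was again apart. Among spots of none of the classes its level was the higher for the label KPC-shZEB1, 53.3 against 41.9 CPM (log2 0.35, 0.27 to 0.42). Outside hypoxic spots its ratio was 0.11 (0.05 to 0.17), and outside neutrophil-rich spots 0.06 (0.01 to 0.12). Within neutrophil-rich spots it was -0.19 (-0.32 to -0.06), and within hypoxic spots -2.25 (-2.59 to -1.94). The lower level of Cxcl3 in the library labelled KPC-shZEB1 was thus not seen once the hypoxic or the neutrophil-rich spots were left out.

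**Figure D5:**
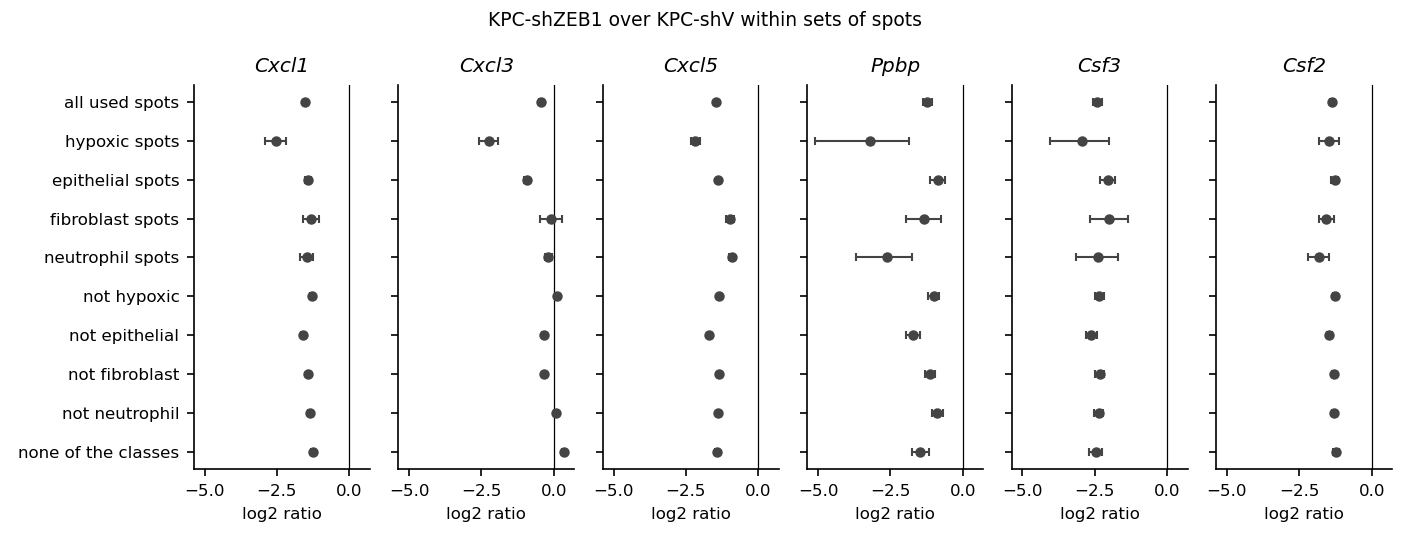
Log2 ratio of each member between the library labelled KPC-shZEB1 and that labelled KPC-shV within sets of spots defined by class, with exact 95% binomial intervals. Cxcl3 lies above 0 outside hypoxic spots (0.11), outside neutrophil-rich spots (0.06) and in spots of none of the classes (0.35), while the other members lie below 0 in each set.

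Pairs of members were also compared across single spots. Values were log2(1 + UMIs per 10000), and r is Pearson's, given as a description over 1460 and 3301 spots that share a library and differ in depth. Cxcl1 and Cxcl5 had an r of 0.56 (library labelled KPC-shZEB1) and 0.50 (KPC-shV), and Cxcl3 and Cxcl5 0.65 and 0.32. Cxcl1 and Cxcl3 stood at 0.53 and 0.30, Cxcl1 and Csf2 at 0.19 and 0.40, Cxcl1 and Csf3 at 0.11 and 0.38, and Csf3 and Csf2 at 0.17 and 0.34. In the library labelled KPC-shV Cxcl1 thus went with the growth factors no less than with Cxcl3 by this measure. By ranks (Spearman's correlation) the libraries lay closer, with Cxcl3 and Cxcl5 at 0.67 and 0.53 and Cxcl1 and Cxcl3 at 0.56 and 0.44. Cxcl3 followed the neutrophil score with an r of 0.81 in the library labelled KPC-shV and 0.34 in the other. Cxcl5 followed the epithelial score (0.51 and 0.52) and ran against the fibroblast score (-0.59 and -0.54).

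The genes most like each member were those with the highest value of the lower of its 2 r, among 18896 genes. For Cxcl5 they were Prom1 (0.61 and 0.69), Muc4, Cldn7, Hs3st1 and Slc4a4. Prom1 encodes a protein of epithelial apical membranes, Muc4 a membrane mucin and Cldn7 a tight junction claudin. For Cxcl1 they were Cxcl5 itself, Anxa3, Ptpn13, Myc and Rab10. For Cxcl3 they were Upp1, Por, Lrrfip1, Il1b and Tgfa, of which Il1b, encoding interleukin-1 beta, had an r of 0.36 and 0.68. For Csf2 they were Prss22 (0.47 and 0.50), Lama3, Mab21l4, Acsbg1 and Tnnt2, and for Csf3 Tnnt2, Prss22 and Srd5a1. Tnnt2 and Prss22 were thus named for both growth factors. Ppbp had no gene at the minimum r of 0.3.

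Of 7 genes for receptors of these factors none was at a log2 ratio of 1 or above or -1 or below (median -0.21). Of all genes, 3.81% and 1.71% were. Cxcr1 was lowest (-0.72) and Ackr1, a receptor on venules that binds chemokines without signalling, highest (0.74). Both genes lay under Omp in both libraries and thus within the full background range, so the size of these 2 ratios is uncertain. Ackr1 lay above the other 12 off-tissue genes, at 4.59 against at most 2.19 CPM in the library labelled KPC-shZEB1. In that labelled KPC-shV it was at 2.74 against at most 1.69 CPM. Cxcr1 lay above those 12 only in the library labelled KPC-shV (2.47 CPM). Ackr1 was higher in fibroblast-rich spots (log2 2.72 and 2.96), while Omp was lower there. The off-tissue genes had ratios from -0.57 to 0.76, a range that holds the ratio of Ackr1 but not that of Cxcr1. Cxcr2 was at 8.86 against 11.4 CPM (-0.36), above Omp (5.59 and 8.32 CPM), and Csf3r, the G-CSF receptor, at 33.7 against 42.4 CPM (-0.33). In neutrophil-rich spots both receptors were higher than in other spots, Cxcr2 by 1.68 and 1.62 on the log2 scale and Csf3r by 1.31 and 1.82. In hypoxic spots Csf3r was higher in the library labelled KPC-shV (77.1 against 33.4 CPM) and was at 24.98 against 34.0 CPM in the other.

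Among 7 cytokines that induce the ligands, 1 was at -1 or below (median -0.31), against 1.71% of all genes. This was Il1a, an alarmin of epithelial cells, at 17.6 against 45.6 CPM (-1.38). Il6 (3.02 and 2.73 CPM), Il17a (0.94 and 0.80 CPM) and Il17f (1.26 and 1.62 CPM) lay under Omp in both libraries. Like Cxcl5, Il1a was higher in epithelial-rich spots (log2 1.47 and 0.86) and lower in fibroblast-rich spots (-1.61 and -1.69). Il1b, made mostly by myeloid cells, had a ratio of -0.31 between libraries and was higher in neutrophil-rich spots (1.36 and 1.48). Of 9 NF-kB target genes 1 was at -1 or below (median -0.24), against the same 1.71% of all genes. It was Ptgs2, which encodes the prostaglandin synthase COX-2, at 22.2 against 87.1 CPM (-1.97). Ptgs2 was higher in hypoxic spots of both libraries, 47.7 against 21.4 CPM (1.15) and 204 against 56.8 CPM (1.85). Icam1 lay at the other end of that list (0.71). Neither measured gene of chemokine mRNA decay was at -1 or below, with Zc3h12a (regnase-1) at -0.90 and Zfp36 (tristetraprolin) at -0.13.

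Of 8 other CXC chemokines with at least 100 UMIs, 3 were at 1 or above and 1 at -1 or below (median 0.46), against 3.81% and 1.71% of all genes. Cxcl9, an interferon-induced ligand of the T cell receptor CXCR3, was at 985 CPM for the label KPC-shZEB1 and 325 CPM for KPC-shV (1.60), and Cxcl10, another such ligand, at 166 against 69.6 CPM (1.26). Cxcl13, which attracts B cells, had the highest ratio (2.12), at 5.13 against 1.18 CPM. Both levels were under Omp (5.59 and 8.32 CPM), so the size of this ratio is uncertain. In the library labelled KPC-shZEB1 Cxcl13 lay above the other 12 off-tissue genes (at most 2.19 CPM). In that labelled KPC-shV it lay within their range (at most 1.69 CPM). Cxcl13 was lower in epithelial-rich spots of the library labelled KPC-shZEB1 (log2 -3.52), while Omp was higher (1.04). Cxcl14 had the lowest ratio (-1.07), while Cxcl16 was nearly equal (0.06). Of 5 other growth factors such as Csf1 none was at 1 or -1 (median -0.12), nor was any of the 3 genes of endothelial entry, Sele, Selp and Icam1 (median 0.57).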

How the data were processed

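Visium CytAssist sections of 2 libraries, 1 with each of the labels KPC-shZEB1 and KPC-shV, were analysed. The authors ran Space Ranger 2.0.1 against mm10 (per the labels) and deposited raw UMI counts of 19465 features for the spots over tissue, with no spot positions used here. The 7 members and all gene lists were chosen with earlier results of these data known. Listed genes not among the features used were Cxcl2, Cpb1, Prss1, Try5, Pnliprp1, Amy2b, Krt18, Stfa2l1, Zfp36l1 and Cxcl11.

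UMIs were summed over spots with at most 20% of UMIs from 19 acinar genes and divided by all UMIs (CPM). Depth was 85436413 and 165556386 UMIs. Levels have exact 95% Poisson intervals, ratios exact conditional binomial intervals and shares Clopper-Pearson intervals. Because counting error alone enters them, no test was made. A gene was counted as higher or lower at a log2 ratio of at least 1 or at most -1, among genes with at least 100 UMIs, after adding 0.5 UMIs for ratios over all genes. Spot scores were means over a list of log2(1 + UMIs per 10000). Named genes were the members and the lowest and highest gene of each list. The 5 genes most correlated with a member in both libraries were also named, where r was at least 0.3. Other list genes given with values (Cxcr2, Csf3r, Il1b, Cxcl9, Cxcl10, Cxcl16, Pf4, Itga2b, S100a8, Retnlg, Il6, Il17f, Prl) were picked from their lists after their values were seen. No doublet caller was run on spots. The computation was tested on simulated data. Python 3.11.15, NumPy 2.4.6, SciPy 1.17.1, pandas 2.3.3 and Matplotlib 3.10.9 were used. Promoter windows came from RefSeq tables of GRCm38.p6, a build with the coordinates of mm10.

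Alternatives covered the acinar limit, the class threshold, the scoring, the weighting of spots, the neutrophil list, thinning and scaling. An alternative with only spots of at least 20000 UMIs was added after the data had been seen.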

Additional observations from a re-analysis of the deposited data

Results flagged for a closer look

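The 4 ligands and their sum lay on opposite sides of 0 in the hypoxic spots of the 2 libraries, and the difference between the libraries was not tested. The log2 ratio of hypoxic over other spots, taken as the library labelled KPC-shZEB1 minus that labelled KPC-shV, differed by -1.11 for the ligand sum (-0.42 against 0.69). It differed by -1.25 for Cxcl1, by -2.36 for Cxcl3, by -0.83 for Cxcl5 and by -2.20 for Ppbp, of which Ppbp rested on 4 UMIs in the hypoxic spots of the library labelled KPC-shZEB1. That library had 55 hypoxic spots, 5 of them neutrophil-rich, and the other had 898, of which 622 were neutrophil-rich. With the threshold set within each library, which made 292 spots of the library labelled KPC-shZEB1 hypoxic, the ligand sum there was on the same side as in the other library (0.26). No cause was tested.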

How the results depend on the processing

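No paired analysis was possible because each group had 1 library, and for the same reason no library could be left out. The ratio of the ligand sum between the library labelled KPC-shZEB1 and that labelled KPC-shV (-1.33) stayed negative in every alternative run. It was -1.97 with all spots, -1.30 and -1.36 with an acinar limit of 5% or 40%, -1.501 with each spot's CPM averaged, -1.39 without the 5% of spots highest in the sum and -1.16 as a mean of the members' ratios. The growth factor sum (-1.61) was at -2.23 with all spots, -1.71 without the top 5% of spots and -1.90 as a mean of ratios. Single members kept their sign in 48 of 48 alternatives, 8 of which moved the ratio by over 1.5 times, among them Cxcl3 at -1.11 with all spots and -1.51 with each spot's CPM averaged.

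For the ligand sum in hypoxic spots, the library labelled KPC-shZEB1 (-0.42) turned to 0.0765 at the 90th percentile and 0.26 with the threshold set within each library, and the library labelled KPC-shV (0.69) stood at 0.52 and 0.62, at 0.73 with summed scores, 0.95 with averaged CPM and 0.65 with spots of at least 20000 UMIs. In epithelial-rich spots the values were 0.64, 0.73 and 0.87 at the 90th percentile, within the library and with summed scores for the library labelled KPC-shZEB1, and 0.49, 0.72 and 0.54, and 0.74 with averaged CPM, for that labelled KPC-shV. In fibroblast-rich spots averaged CPM gave -2.27 and -2.86, and the library labelled KPC-shV stood at -2.90 at the 90th percentile, -2.53 within the library and -2.53 with summed scores. In neutrophil-rich spots the library labelled KPC-shZEB1 (1.29) turned to -1.17 at the 90th percentile, where 11 spots were left, with Cxcl3 at -0.75 and Cxcl5 at -1.29. It stood at 1.16 within the library, 1.21 with summed scores, 1.08 with averaged CPM and 0.71 with the study's granulocyte genes. The library labelled KPC-shV (0.94) stood at 0.73, 0.82, 1.19 with averaged CPM, 0.57 with the study's genes and 0.92 with spots of at least 20000 UMIs. Ppbp in the hypoxic spots of the library labelled KPC-shZEB1 turned to 0.14 with the threshold within the library. The causes were not tested, beyond the fewer spots that a higher threshold leaves.

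The share of spots with a ligand UMI was 29.0% and 54.1% after thinning to 2000 UMIs, 81.9% and 93.4% at 20000 UMIs, and 92.5% and 94.1% without thinning, so it follows the depth chosen. Over all classes, single members kept their sign in 237 of 250 alternatives. A few alternatives left a member with 0 UMIs and gave no value.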
